A study of Mus musculus with 4 samples.

Results

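The genes described here encode nuclear subunits of the mitochondrial respiratory chain and ATP synthase, together with some assembly factors. They were chosen by symbol: every gene whose symbol begins with Ndufa, Ndufb, Ndufc, Ndufs, Ndufv, Sdh, Uqcr, Cox4 to Cox8 or Atp5 and that has a probe set annotated to it alone. The rule used no intensities, but it was set with earlier results of these data known. This gave 94 of the 18193 genes with such a probe set, measured by 185 probe sets. Of the 94 genes, 88 were bright enough to be tested, among 10200 genes in all. RNA came from regulatory T cells of the spleen, sorted as CD4+ Foxp3+ cells that lack neuropilin 1 (Nrp-) or carry it (Nrp+), and was hybridised to 1-colour Affymetrix mouse arrays, 2 per group. The mice of both groups were Balb/c carrying a Foxp3 GFP reporter, which marks cells that express Foxp3, the defining transcription factor of this lineage. The labels give an age of 4 to 6 weeks, except 4 to 8 weeks for Nrp- replicate 1, and name no treatment. Separate mice or sorts are stated for no pair of arrays, so every p-value measures only the spread between these arrays. Whether that is a spread between mice is not stated.

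Oxidative phosphorylation takes place in the inner mitochondrial membrane. Complexes I (NADH dehydrogenase) and II (succinate dehydrogenase) pass electrons to ubiquinone, complex III passes them on to cytochrome c, and complex IV (cytochrome c oxidase) gives them to oxygen. Complexes I, III and IV pump protons as they do so, and ATP synthase, or complex V, uses the gradient to make ATP. Regulatory T cells are known for their reliance on mitochondrial respiration. Neuropilin 1 is a surface receptor often used to tell thymus-derived regulatory T cells from those induced in the periphery. The sort here compares cells by neuropilin 1, and the sample titles state no thymic or peripheral origin.

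Intensities had been deposited on scales that differed 3.33-fold between the replicate numbers, and all 4 arrays were brought here to a trimmed mean of 500. The array titled Nrp- replicate 1 carries a source name and cell type that read Nrp+. Its Nrp1 intensity was 339, against 1223 on Nrp- replicate 2 and 9344 and 7745 on the Nrp+ arrays. Replicate number split the arrays more than group did: across genes, arrays of one replicate number correlated at Pearson r = 0.980 and 0.984, and arrays of one group at 0.941 (Nrp-) and 0.956 (Nrp+). The ratio of the 3′ to the 5′ Gapdh control probe set was 1.74 and 1.54 on the replicate 1 arrays and 0.763 and 0.711 on the replicate 2 arrays, Nrp- first. All 6 T cell markers with a probe set were above the filter, and their summed intensity ranged from 65211 to 79278 over the 4 arrays. The Foxp3 probe set was dim on every array, between 2.16 and 36.4, so the lineage factor itself was not measured above the filter. The other 5 markers of the regulatory T cell list were tested, with a median difference of 0.44, and 4 were higher in Nrp+ in both replicate numbers: Nrp1, on which the cells were sorted, Ikzf2 (1.01 and 0.65), Tnfrsf18 (0.42 and 0.46) and Il2ra (0.26 and 0.28). Ctla4 differed by −0.23 and 0.0078. Limma called Nrp1 and Ikzf2 higher with the replicate number as a block (adjusted p = 0.00615 and 0.0329) and none of the 5 without it. Summed intensity of 8 myeloid markers was 12907 and 15703 on the replicate 1 arrays and 53517 and 50364 on the replicate 2 arrays. The summed B cell markers lay between 7138 and 8920, with Cd79a, Ms4a1 and Pax5 below the filter. Most of that sum was Ighm, lower in Nrp+ by −0.22 and −0.19 in replicate numbers 1 and 2. Cd79b was higher by 0.58 and 0.46, and Cd22 by 0.094 and 0.32. Summed CD8 T and NK markers read 566 and 1370 on the Nrp- arrays and 989 and 1460 on the Nrp+ arrays, replicate 1 first. Xist, a noncoding RNA of female cells, read 83.2 on Nrp+ replicate 1 and between 4083 and 13630 on the other arrays. It therefore differed widely within the Nrp+ group, and between the groups in replicate number 1. The part of these differences in the values below was not tested.

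Most respiratory chain genes had slightly lower intensity in Nrp+ than in Nrp- cells, and no single gene passed the test. The mean log2 difference, Nrp+ minus Nrp-, was negative in 71 of the 88 tested genes and positive in 17, beside a background of 49.1% negative among all genes tested. Within both replicate numbers, 58 genes (65.9%) were lower in Nrp+, where the background was 26.0%, and 7 (7.95%) were higher, where it was 27.9%. The other 23 went opposite ways. The median difference over the 88 genes was −0.086 on the log2 scale, or −5.77%, with −0.072 in replicate number 1 and −0.10 in replicate number 2. Without Nrp- replicate 2 the median over the 88 genes was −0.051, in a fit without a block. With any other array left out it lay further from 0. Over all genes tested the median was 0.0038. Differences are on the scale of log2(intensity + 18.3), which understates the change of dim genes. The 88 genes were read on the same 4 arrays, so their shared direction is not 88 separate observations. In RNA from sorted populations, fewer cells of a type and less RNA per cell cannot be told apart.

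The spread between arrays was large against these differences. Limma's moderated test without a block called 0 of the 88 genes at an adjusted p under 0.05, beside a background of 0% of all genes in either direction. At an unadjusted p under 0.05 it listed 0 of the 88, beside 1.44% of all genes. With the replicate number as a block, limma again called 0 of the 88 after adjustment, beside 0.284% of all genes higher and 0.167% lower. In that fit 5 of the 88 had an unadjusted p under 0.05, all lower in Nrp+, beside 3.29% of all genes lower and 5.31% higher. These were Atp5md, Atp5mpl, Ndufa12, Ndufs5 and Ndufb2. An exact permutation test of 2 arrays against 2 cannot go below a two-sided p of 0.333, so it was not used for single genes.

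Separation of the groups was more frequent downward than upward. Both Nrp+ arrays lay below both Nrp- arrays in 21 of the 88 genes (23.9%), where the background was 9.15%. In 0 of the 88 genes did both Nrp+ arrays lie above both Nrp- arrays, where the background was 12.0%. The lowest of the 4 intensities fell on an Nrp+ array in 67 of the 88 genes (76.1%), against 44.7% of all genes tested, and the highest on an Nrp- array in 72 (81.8%), against 53.5%. Large differences were scarce: 6 of the 88 genes (6.82%) differed by more than 0.25 on the log2 scale in either direction, against 23.1% of all genes tested. Atp5md alone differed by more than 0.5. The 88 genes had a median intensity of 4766, against 798 for all genes tested, so these backgrounds are not matched for brightness. The part of brightness in the scarcity was not tested.

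**Figure D1:**
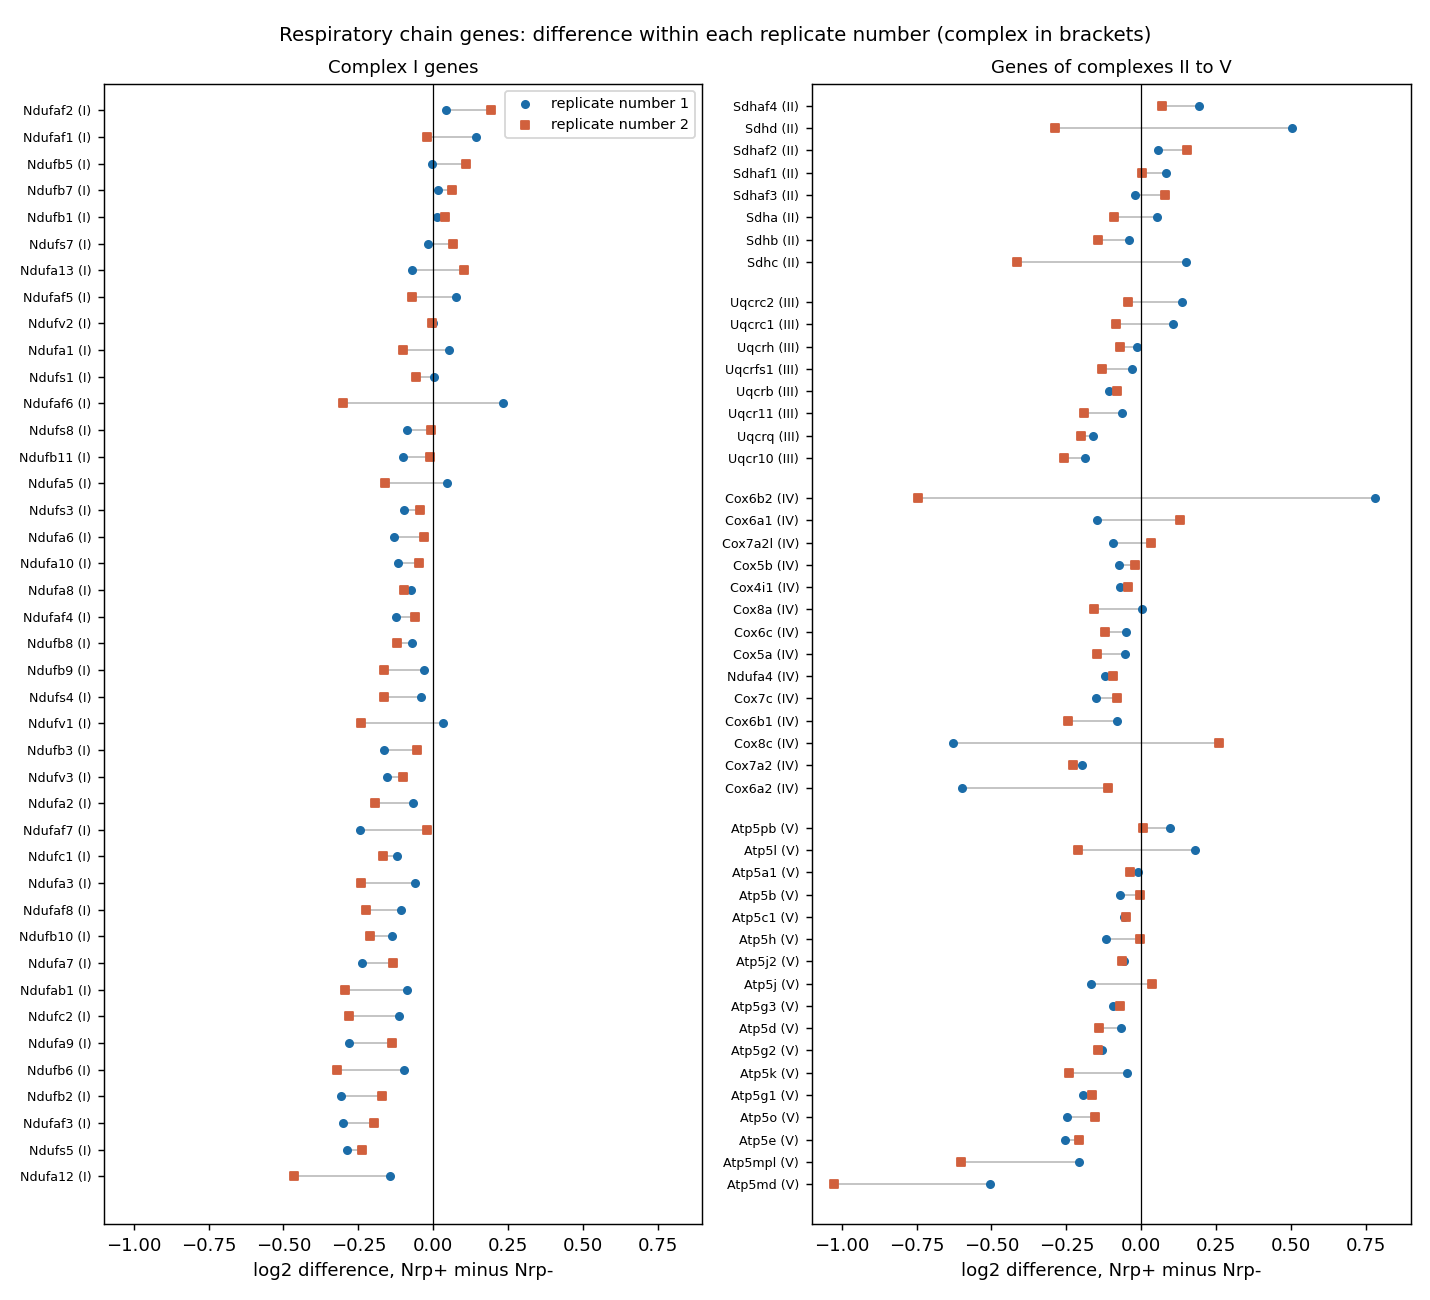
Log2 difference in intensity, Nrp+ minus Nrp-, for each of the 88 tested respiratory chain genes (rows), with complex I on the left and complexes II to V on the right; circles are replicate number 1, squares replicate number 2, and a grey line joins them. Both symbols lie left of 0 in 58 genes and right of 0 in 7, and Atp5md lies farthest left.

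ATP synthase showed the lower direction in most subunits: 16 of its 17 genes had a negative difference, 14 in both replicate numbers, with a median of −0.084. Intensities are given below for replicate 1 and then replicate 2. Atp5md, the small membrane subunit also called DAPIT that is needed for stable dimers of the enzyme, read 1994 and 3523 on the Nrp- arrays and 1399 and 1723 on the Nrp+ arrays. Both Nrp+ values lay below both Nrp- values, and the Nrp- arrays were far apart. The group means were 2759 ± 1081 for Nrp- and 1561 ± 229 for Nrp+ (SD, n = 2 each). The difference was −0.77 (SE 0.31), or −41.2%, with −0.51 in replicate number 1 and −1.02 in replicate number 2. Limma gave it an unadjusted p of 0.0566 and an adjusted p of 0.9998 without a block, and an adjusted p of 0.0607 with the replicate block. After quantile normalisation with that block the adjusted p was 0.00351, the one call of a respiratory chain gene in any fit, where 0.608% of all genes were called lower and 1.05% higher. The difference was −1.17 without Nrp- replicate 1 and −0.36 without Nrp- replicate 2. Without a mean-variance trend, the fit with the block gave an adjusted p of 0.471.

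Atp5mpl, the other small proteolipid-like membrane subunit, read 3521 and 8006 on the Nrp- arrays and 3044 and 5267 on the Nrp+ arrays. Nrp- replicate 1 lay between the Nrp+ arrays, so the groups overlapped. The difference was −0.41, with −0.21 in replicate number 1 and −0.60 in replicate number 2. Its adjusted p was 0.282 in limma with the block. In a fit without the block, the difference turned to 0.18 without Nrp- replicate 2. Among the remaining membrane subunits, Atp5k (subunit e) differed by −0.14, Atp5j2 (subunit f) by −0.061 and Atp5l (subunit g) by −0.015, the last with opposite signs in the replicate numbers.

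All 5 genes of the catalytic F1 head had small negative differences in both replicate numbers. Atp5a1 and Atp5b, the alpha and beta subunits that form the catalytic sites, differed by −0.024 and −0.038, and Atp5c1, the gamma subunit of the rotating shaft, by −0.054. Atp5e, the epsilon subunit of that shaft, read 7999 and 9712 on the Nrp- arrays and 6704 and 8417 on the Nrp+ arrays. Each Nrp+ array was lower than the Nrp- array of its replicate number, while the groups overlapped, and the difference was −0.23.

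The ring of c subunits, which proton flow turns, is made from the genes Atp5g1, Atp5g2 and Atp5g3, which encode the same mature protein. Atp5g1 read 2246 and 3618 on the Nrp- arrays and 1960 and 3231 on the Nrp+ arrays. Atp5g2 read 8329 and 8184 against 7600 and 7398. For Atp5g3 the values were 19442 and 18208 against 18201 and 17320. Atp5g2 and Atp5g3 did not overlap between groups, though for Atp5g3 the gap between Nrp- replicate 2 and Nrp+ replicate 1 was small, and Atp5g1 overlapped because its replicate numbers were far apart. Their differences were −0.18, −0.14 and −0.084 in that order. In the peripheral stalk, which holds the head still, Atp5o differed by −0.20 and Atp5h by −0.061, while Atp5pb (subunit b) was higher in both replicate numbers, at 0.051. Atp5pb turned to −0.20 when probe sets of the _x_at and _s_at kinds, which can bind more than one transcript, were left out.

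**Figure D2:**
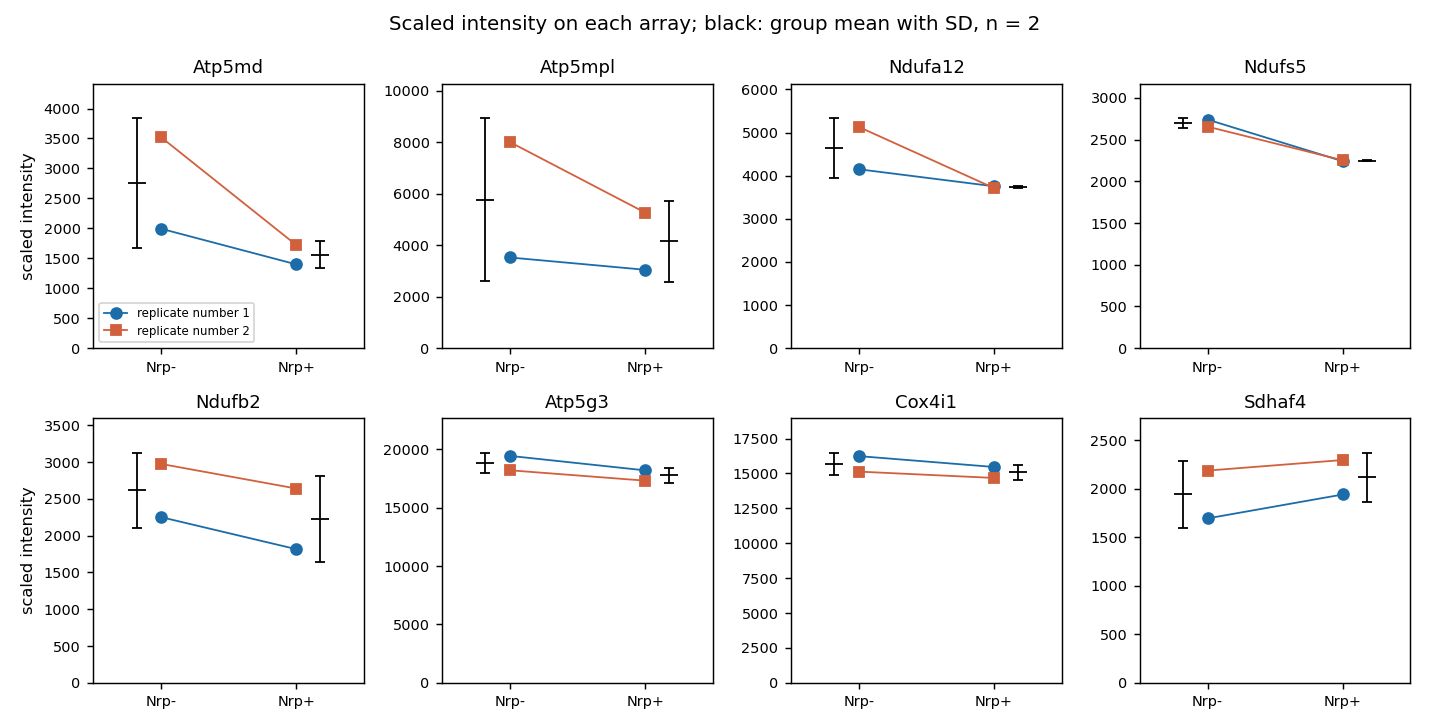
Scaled intensity (trimmed mean 500) of 8 respiratory chain genes on each array, by group, with a line joining the arrays of one replicate number; black marks are the group mean with SD (n = 2). Ndufs5 has Nrp- arrays at 2741 and 2656 and Nrp+ arrays at 2241 and 2252, Atp5md has widely spaced Nrp- arrays, and Sdhaf4 is higher in Nrp+ within each replicate number.

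Upstream sequence was examined because nuclear respiratory chain genes are known to share promoter elements for the factors NRF1, GABP (an ETS family factor) and YY1. A RefSeq promoter window (GRCm38.p6, 300 bases, from 250 before to 50 after the start) was given for 74 of the 88 tested genes. The letters searched on both strands were GCGCA joined to its reverse complement for NRF1, CCGGAAG for ETS and AAGATGGC for YY1. The NRF1 letters occurred in 6 of the 74 genes (8.11%), against 1.07% of 27025 genes with a window and 2.65% of 8352 tested genes with one. For ETS the share was 22 of 74 (29.7%), against 9.93% and 22.3%, and for YY1 it was 10 of 74 (13.5%), against 3.19% and 5.84%. At least 1 of the 3 motifs was present in 34 of 74 genes (45.9%), against 13.4% and 28.6%, and in 0 of these genes did matches of different motifs overlap. A match is a description of the letters and not evidence of binding. Shown here in capitals are the matches in 3 ATP synthase genes: Atp5md, which had the largest difference, Atp5k, with an NRF1 and an ETS match, and the downstream of 2 windows of Atp5j, with a YY1 and an ETS match. Each runs 5′ to 3′ on the minus strand from 250 bases before to 20 after the start, at chr19:47090628-47090897, chr5:108434380-108434649 and chr16:84834957-84835226 in that order.
Atp5md: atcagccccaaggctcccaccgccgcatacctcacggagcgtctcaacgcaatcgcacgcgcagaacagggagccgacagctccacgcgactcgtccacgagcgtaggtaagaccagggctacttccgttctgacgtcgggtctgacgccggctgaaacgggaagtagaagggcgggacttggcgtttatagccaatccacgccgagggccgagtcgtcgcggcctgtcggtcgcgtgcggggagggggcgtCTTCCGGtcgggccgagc
Atp5k: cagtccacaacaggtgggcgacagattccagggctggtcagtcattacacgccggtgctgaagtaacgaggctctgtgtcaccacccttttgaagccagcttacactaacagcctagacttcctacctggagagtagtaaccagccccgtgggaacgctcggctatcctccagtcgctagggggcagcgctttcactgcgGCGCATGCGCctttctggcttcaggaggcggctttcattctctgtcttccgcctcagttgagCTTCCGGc
Atp5j: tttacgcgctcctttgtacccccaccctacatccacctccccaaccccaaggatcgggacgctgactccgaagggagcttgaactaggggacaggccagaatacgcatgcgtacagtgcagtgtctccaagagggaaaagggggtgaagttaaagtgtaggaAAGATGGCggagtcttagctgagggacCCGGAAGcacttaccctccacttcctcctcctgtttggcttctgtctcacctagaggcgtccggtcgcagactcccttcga

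Complex I contributed 41 tested genes, of which 33 had a negative difference, 28 of them in both replicate numbers, with a median of −0.096. Most of these were accessory subunits, which surround and stabilise the enzyme. Of 27 tested, 23 were negative, 21 in both replicate numbers, and the median was −0.11. In 10 of the 27 (37.0%) both Nrp+ arrays lay below both Nrp- arrays, where the background over all genes tested was 9.15%. Ndufs5, an accessory subunit on the intermembrane space side, read 2741 and 2656 on the Nrp- arrays and 2241 and 2252 on the Nrp+ arrays. The arrays of each group lay close together and the groups were apart, at 2698 ± 59.8 and 2246 ± 8.07 (SD, n = 2 each). Its difference was −0.26 (−16.6%), −0.29 and −0.24 in replicate numbers 1 and 2, with an adjusted p of 0.491 in limma with the block. With any array left out it stayed between −0.28 and −0.24.

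Ndufa12, an accessory subunit placed late in assembly of the electron input arm, read 4149 and 5131 on the Nrp- arrays and 3754 and 3713 on the Nrp+ arrays. The groups did not overlap, and Nrp- replicate 2 stood highest. The difference was −0.30, with an adjusted p of 0.461 in limma with the block. Its 4 probe sets ranged from −0.30 to 0.51, and 3 were negative, each in both replicate numbers. The one left without the _x_at and _s_at kinds gave 0.51, from 1.19 in replicate number 1 and −0.16 in replicate number 2. That probe set was dim, at 31.8 and 118 on the Nrp- arrays and 95.7 and 103 on the Nrp+ arrays. Ndufb2, a subunit of the proton-pumping membrane arm, read 2252 and 2975 on the Nrp- arrays and 1817 and 2640 on the Nrp+ arrays. Within each replicate number Nrp+ was lower, and the groups overlapped. Its difference was −0.24, all 3 of its probe sets were negative, and the adjusted p was 0.576 in limma with the block.

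The rest of those 10 accessory subunits with separate groups were Ndufa3, Ndufab1 (the mitochondrial acyl carrier protein), Ndufb3, Ndufb6, Ndufb8, Ndufb10, Ndufc2 and Ndufv3. Their differences ran from −0.21 for Ndufb6 to −0.096 for Ndufb8. Ndufb1 and Ndufb7 were higher in both replicate numbers, by 0.026 and 0.041. Ndufa1 and Ndufb11, small membrane subunits named for the bright signal of their probe sets, differed by −0.023 and −0.055. The core subunits, which carry the flavin and the iron-sulphur clusters, stood nearer to 0. Of the 6 tested, 5 were negative, 3 in both replicate numbers, and the median was −0.037. Ndufv2 read 5971 and 6123 on the Nrp- arrays and 5969 and 6113 on the Nrp+ arrays. The arrays of a replicate number were almost equal, and the difference was −0.0014. Ndufs1, Ndufs3, Ndufs8 and Ndufv1 differed by −0.027, −0.071, −0.046 and −0.10, and Ndufs7 by 0.025. Ndufs1, Ndufs7 and Ndufv1 had opposite signs in the replicate numbers. Ndufs6 and Ndufa11 were left out because their probe sets also name a near-identical copy.

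Complex II, the tricarboxylic acid cycle enzyme that also feeds the chain, had 8 tested genes, of which 3 were negative, 1 in both replicate numbers. The median over the 8 was 0.036, but they pool 4 subunits of the enzyme with 4 assembly factors. Of the 4 subunits, 3 were negative, with a median of −0.056, and 0.10 and −0.22 in replicate numbers 1 and 2. Of the 4 assembly factors, 0 were negative, and the median was 0.0735. Sdha, the flavoprotein, read 3702 and 4248 on the Nrp- arrays and 3843 and 3986 on the Nrp+ arrays. Sdhb, the iron-sulphur subunit, read 5032 and 5759 against 4893 and 5209. Both overlapped between groups, with differences of −0.019 and −0.092. The membrane anchors Sdhc and Sdhd went opposite ways in the replicate numbers: Sdhc differed by 0.15 in replicate number 1 and −0.41 in replicate number 2, and Sdhd by 0.50 and −0.29. The assembly factors Sdhaf1, Sdhaf2 and Sdhaf4, which help to insert the clusters or the flavin, were higher in both replicate numbers, by 0.043, 0.10 and 0.13. Sdhaf4, the largest positive difference of all 88 genes, read 1695 and 2188 on the Nrp- arrays and 1942 and 2297 on the Nrp+ arrays. The groups overlapped, and each Nrp+ array was the higher of its replicate number. Whether complex II differs from the other complexes was not tested.

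Assembly factors of complex I held a mixture. Of 8 genes, 5 were negative, 4 in both replicate numbers. Ndufaf3, which acts early in assembly, read 976 and 1357 on the Nrp- arrays and 788 and 1180 on the Nrp+ arrays. Nrp+ was the lower within each replicate number, the groups overlapped, and the difference was −0.25. Ndufaf2, a factor of late assembly, differed by 0.12 the other way. Over the 12 assembly factors of complexes I and II together, 5 were negative and the median was 0.017. Over the 73 tested subunits, without assembly factors and tissue isoforms, 64 were negative, 53 in both replicate numbers, and the median was −0.092.

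In complex III, 6 of 8 genes were negative, all 6 in both replicate numbers, with a median of −0.087. All 5 small accessory subunits were among them. Uqcrq read 3542 and 3563 on the Nrp- arrays and 3168 and 3098 on the Nrp+ arrays. Uqcrb read 21929 and 21439 against 20378 and 20290. In both genes the arrays of a group lay close together and the groups did not overlap, with differences of −0.18 for Uqcrq and −0.093 for Uqcrb. Uqcr11 was separate too, at −0.13, whereas Uqcr10 overlapped at −0.22 and Uqcrh at −0.042. Uqcrfs1, the Rieske iron-sulphur protein, differed by −0.081. The large core proteins Uqcrc1 and Uqcrc2 differed by 0.011 and 0.046, each higher in Nrp+ in replicate number 1 and lower in replicate number 2.

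Complex IV had 14 tested genes, 13 of them negative and 9 in both replicate numbers, with a median of −0.093. Cox7a2, the general isoform of a small subunit near the dimer interface, read 14704 and 16447 on the Nrp- arrays and 12819 and 14036 on the Nrp+ arrays. Both Nrp+ values lay below both Nrp- values, and the difference was −0.21, −0.20 and −0.23 in replicate numbers 1 and 2. Cox4i1, the general form of the regulatory subunit IV, read 16246 and 15134 on the Nrp- arrays and 15466 and 14681 on the Nrp+ arrays. The groups overlapped, and the difference was −0.057. Cox6a1 read 28888 and 20389 against 26107 and 22292, with opposite signs in the replicate numbers and a difference of −0.0086. Cox6b1, Cox6c, Cox8a and Ndufa4, a former complex I subunit now placed in complex IV, differed by −0.16, −0.086, −0.076 and −0.11, and Cox7a2l, a factor of supercomplexes, by −0.030.

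The tissue isoforms of complex IV, known from lung, muscle or testis, were mostly at the dim end of the array. Cox4i2, Cox7a1, Cox7b2, Cox8b and Ndufa4l2 did not pass the filter on mean level and were not tested, like the complex I gene Ndufb4, whose other probe sets also name copies. The Cox4i2 intensity ranged from 9.90 to 77.9, that of Cox7a1 from 18.5 to 65.0, and that of Cox7b2 from 1.32 to 26.8. For Cox8b the range was 7.11 to 82.7, for Ndufa4l2 it was 7.86 to 88.5, and for Ndufb4 it was 25.9 to 54.4. At such intensities the arrays of one group could differ many-fold, and no difference is read from them. Cox6a2, Cox6b2 and Cox8c passed the filter. Cox6b2 differed by 0.78 in replicate number 1 and −0.74 in replicate number 2, and Cox8c by −0.63 and 0.26. Cox6a2 read 134 and 81.4 on the Nrp- arrays and 82.2 and 74.1 on the Nrp+ arrays, a difference of −0.35 in which Nrp- replicate 1 stood apart.

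The replicate number moved these genes more than the group did. The median absolute difference between groups was 0.094 over the 88 genes, and that between replicate numbers was 0.24. The replicate difference was the larger one in 67 of the 88 genes. Atp5mpl was higher on the replicate 2 arrays by 1.18 in Nrp- and 0.79 in Nrp+ cells, Atp5o by 0.84 and 0.94, and Cox8a by 0.86 and 0.70. Across the 88 genes the replicate difference in Nrp- cells correlated with that in Nrp+ cells at Pearson r = 0.764, and across all genes at 0.730. The group difference itself ordered the genes differently in the replicate numbers. Its Pearson r between replicate numbers was −0.058 across the 88 genes, −0.24 across the 87 without Atp5md, and 0.20 across all genes. Genes are not independent replicates, so these correlations are descriptions.

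**Figure D3:**
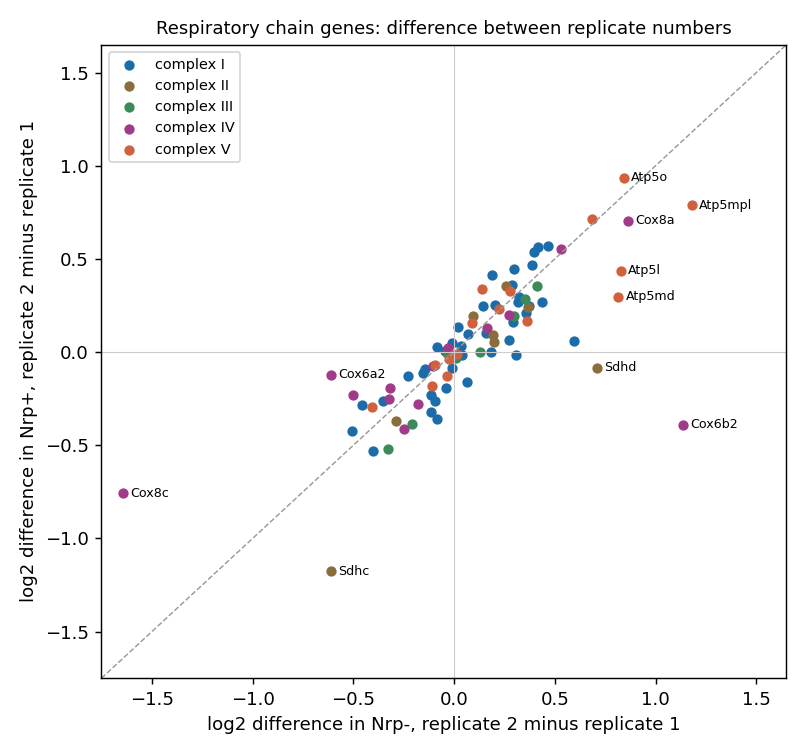
Log2 difference of replicate number 2 minus replicate number 1 in Nrp- cells (horizontal) and Nrp+ cells (vertical) for the 88 respiratory chain genes, coloured by complex; the dashed line marks equality. Most points follow the line, with Pearson r = 0.764 across genes, and Cox6b2 and Sdhd lie far below it.

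Different probe sets of a gene mostly shared the direction. Of the 165 member probe sets that passed the filter, 131 were negative, 103 of them in both replicate numbers. In 48 genes more than 1 probe set passed: all were negative in 28, signs were mixed in 18 and all were positive in 2. The widest disagreements besides Ndufa12 were in Ndufs8, from −0.45 to 0.25, Sdhd, from −0.53 to 0.11, Atp5j2, from −0.20 to 0.38, and Ndufs4, from −0.29 to 0.21. Some of these ends came from dim probe sets. The Ndufs8 value of −0.45 came from intensities of 135 to 247, and the Atp5j2 value of 0.38 from 176 to 324. The Ndufs8 value of 0.25 came from brighter ones, 1473 to 2480. The 19 tested genes read by an _x_at or _s_at probe set had a median of −0.10, and the other 69 had −0.084.

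Most other mitochondrial lists also held more negative than positive differences. Limma called 0 genes of each of the lists that follow, with or without the block. Of 53 other respiratory chain and assembly genes tested, 38 were negative, 22 in both replicate numbers, with a median of −0.10. Both Nrp+ arrays lay below both Nrp- arrays in 11 of the 53 (20.8%), where the background was 9.15%. They lay above in 3, where the background was 12.0%. Cycs, cytochrome c, read 10800 and 10470 on the Nrp- arrays and 9908 and 8681 on the Nrp+ arrays, so the groups did not overlap, with a difference of −0.20. Of 76 mitochondrial ribosome genes, 53 were negative, 38 in both replicate numbers, with a median of −0.076. The tricarboxylic acid cycle list had 16 of 23 negative, 10 in both, with medians of 0.021 and −0.10 in replicate numbers 1 and 2. Of 18 carriers and uncoupling proteins, 14 were negative, 7 in both, and the median was −0.086. The regulators of mitochondrial biogenesis stood at a median of 0.0004, with 10 of 20 negative and 4 in both. Glycolysis and the cytosolic ribosome, from outside the organelle, serve as a comparison. Glycolysis had 11 of 16 negative, 6 in both, with a median of −0.077, and 0.0081 and −0.11 in replicate numbers 1 and 2. The cytosolic ribosome had 35 of 42 negative but 7 in both, with medians of −0.23 in replicate number 1 and 0.15 in replicate number 2.

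The medians of most of these lists changed sign when 1 array was left out, glycolysis being the exception. That of the 88 genes stayed negative. These fits had no block, so with 1 array missing the difference between replicate numbers also entered the group difference. Without Nrp- replicate 2 the median was 0.034 for the other respiratory chain and assembly genes, 0.055 for the mitochondrial ribosome, 0.058 for the tricarboxylic acid cycle and 0.019 for the carriers. Without Nrp- replicate 1 the same lists stood at −0.18, −0.23, −0.080 and −0.16. Leaving out Nrp+ replicate 1 gave 0.0066 for the mitochondrial ribosome, 0.016 for the tricarboxylic acid cycle, −0.056 for the other respiratory chain and assembly genes and −0.048 for the carriers. Leaving out Nrp+ replicate 2 gave −0.19 for the mitochondrial ribosome, −0.071 for the tricarboxylic acid cycle and −0.15 for the carriers. Over the arrays left out, the regulators ranged from −0.047 to 0.052, glycolysis from −0.15 to −0.031 and the cytosolic ribosome from −0.45 to 0.33. The other respiratory chain and assembly genes also moved to −0.041 without _x_at and _s_at probe sets and to −0.054 with the mean of the probe sets.

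**Figure D4:**
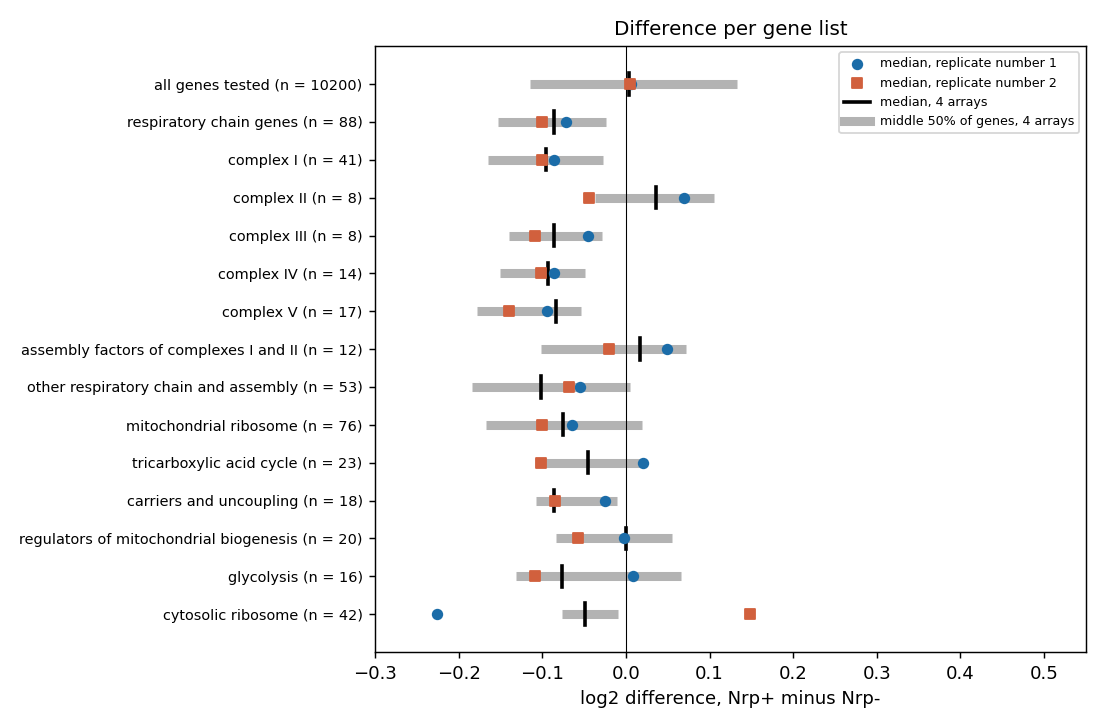
Log2 difference, Nrp+ minus Nrp-, per gene list: the black tick is the median over genes from all 4 arrays, the grey bar the middle 50% of genes, and circles and squares the medians in replicate numbers 1 and 2. Complexes I, III, IV and V have both replicate medians below 0, complex II and the assembly factors do not, and the cytosolic ribosome medians lie on opposite sides of 0. The complex II list pools 4 subunits with 4 assembly factors.

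The conflicting labels touch replicate number 1 only, so replicate number 2 is also given alone. There 73 of the 88 genes were lower in Nrp+, against 66 in replicate number 1. Of all 10200 genes tested, 5005 were lower in each replicate number. Each of these counts rests on 1 array against 1. The summed myeloid signal in replicate number 2 was high on both arrays. Quantile normalisation left the direction in place, with a median of −0.073 over the 88 genes and 58.0% of them lower in both replicate numbers, against 27.6% of all genes.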

How the data were processed

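The deposited values were linear probe set intensities from MAS5 (per the submitters' processing notes; version not given in the sources used here). The values show that the authors scaled arrays to a trimmed mean (2% removed at each end) of 500.003 in replicate number 1 and 150.001 in replicate number 2. Here each array was brought to 500 and log2(intensity + 18.33) was taken, where 18.33 is 0.25 of the mean array median. Of 45101 probe sets, 34945 named 1 gene, 932 several and 9160 none, with 64 controls. Probe sets of 1 gene whose mean level reached percentile 50 (22519) were kept, and the brightest stood for its gene. Limma 3.58.1 in R 4.3.3 (eBayes with a trend, two-sided, Benjamini-Hochberg over 10200 genes at 0.05) compared groups without a block, and with the replicate number as a block. Each number holds 1 array of each group, and the scaling target differed between the numbers. What the replicate number stands for is not stated. The fit was also run on simulated data. The changes set there were larger than the mean difference of any tested respiratory chain gene, so that run does not bear on differences this small. Groups came from titles. Only 4 arrays limit the precision. The brightness of different probe sets does not rank genes. Members and lists were chosen with earlier results of these data known. Named are the 2 brightest genes of each complex and the 10 largest differences each way with 1 direction in both replicate numbers. Called genes, isoform families and catalytic subunits are also named. Other members named were chosen after their values were seen, and Cycs, from another list, was named outside this rule. Alternatives were quantile normalisation, another scaling, filters, pseudocounts, probe set choices, no trend, arrays left out and the conflicting label.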

Additional observations from a re-analysis of the deposited data

How the results depend on the processing

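With 2 arrays per group, differences under about the replicate spread could not be detected for a single gene, and no array can be shown to stand for a mouse. The members' median and count of negative differences kept their direction in every setting run, while most named genes did not. With the replicate number as a block, limma called 29 of all genes higher and 17 lower in Nrp+, against 0 and 0 without it, and 0 respiratory chain genes. Quantile normalisation with the replicate block called 107 higher and 62 lower, 1 of them a respiratory chain gene (Atp5md). The block changed no other call of a respiratory chain gene. The members' median of −0.086 became −0.11 with arrays scaled to one median and −0.12 with the conflicting array counted as Nrp+. With each array left out in turn it ranged from −0.12 (without Nrp- replicate 1) to −0.051 (without Nrp- replicate 2), negative members from 51 to 70, all genes called higher from 0 to 1 and lower from 0 to 1. Replicate numbers alone, chosen after seeing the data, gave −0.072 and −0.10.

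Signs of single genes turned as follows. Fits with an array left out, or with the conflicting array counted as Nrp+, had no block. The groups then held unequal replicate numbers, so the difference between replicate numbers entered the group difference. Beyond that, the cause was not tested. The mean of the probe sets gave Atp5a1 0.052, Atp5pb −0.077, Ndufb7 −0.063, Sdhd −0.21. Without _x_at and _s_at probe sets the values were Atp5a1 0.0067, Atp5pb −0.20, Ndufa12 0.51. Quantile normalisation, with or without the block, gave Cox6a1 0.015, Cox7a2l 0.0046, Ndufb1 −0.017, Ndufv2 0.023. Cox6b2 was −0.012 with one median and −0.011 with a pseudocount of 1 times the median. With the conflicting array counted as Nrp+, 17 genes turned: Atp5g3 0.0073, Atp5h 0.23, Cox4i1 0.030, Cox6a1 0.33, Cox6a2 0.17, Cox6b1 0.056, Cox6b2 −0.75, Cox7a2l 0.19, Cox8c 0.97, Ndufa1 0.010, Ndufaf2 −0.12, Ndufb1 −0.028, Ndufb11 0.20, Sdhaf2 −0.10, Sdhaf4 −0.16, Sdhc 0.32, Sdhd −0.40. With an array left out, 36 of the 48 named genes turned at least once, over these ranges: Atp5b −0.12 to 0.041, Atp5c1 −0.17 to 0.063, Atp5g1 −0.54 to 0.18, Atp5h −0.27 to 0.14, Atp5mpl −0.996 to 0.18, Atp5pb −0.013 to 0.12, Cox6a1 −0.26 to 0.24, Cox6b1 −0.37 to 0.043, Cox6b2 −0.55 to 0.59, Cox6c −0.22 to 0.051, Cox7a2l −0.19 to 0.13, Cox8a −0.51 to 0.36, Cox8c −1.01 to 0.64, Ndufa1 −0.12 to 0.073, Ndufa4 −0.38 to 0.17, Ndufaf2 −0.10 to 0.34, Ndufaf3 −0.54 to 0.035, Ndufb1 −0.022 to 0.074, Ndufb11 −0.23 to 0.12, Ndufb2 −0.51 to 0.028, Ndufb7 −0.037 to 0.12, Ndufs1 −0.11 to 0.053, Ndufs3 −0.20 to 0.057, Ndufs7 −0.23 to 0.28, Ndufs8 −0.28 to 0.19, Ndufv1 −0.28 to 0.078, Ndufv2 −0.019 to 0.017, Sdha −0.12 to 0.080, Sdhaf1 −0.14 to 0.23, Sdhaf2 −0.074 to 0.28, Sdhaf4 −0.051 to 0.31, Sdhb −0.19 to 0.0046, Sdhc −0.72 to 0.46, Sdhd −0.25 to 0.46, Uqcrfs1 −0.23 to 0.069, Uqcrh −0.25 to 0.16.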
